A study of Rattus norvegicus with 9 samples.

Results

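The genes described here are 37 genes of the smooth muscle contractile apparatus, the machinery of the myometrium, chosen by gene symbol and not by their values on these arrays. A probe set with a single gene symbol was found for 34 of the 37, and where a gene had several, the one with the highest mean stood for it. Myl6 had only a probe set annotated to several genes, which was not used, and Pgm5 and Prkg1 had none under their symbols. Ppp1r12b, a regulatory subunit of myosin phosphatase, lay between 4.56 and 4.73 on the log2 scale and reached the filter on dim probe sets on 0 of 9 arrays. The other 33 genes were tested among 10973.

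The arrays came from uterine tissue of female rats and fell into 3 groups of 3: untreated controls (arrays 41, 42 and 43), a model group (21, 22 and 23) and a treatment group (31, 32 and 33). In the model group ovulation was induced by giving each rat 0.5 U of pregnant mare serum gonadotropin (PMSG), followed 48 h later by as much human chorionic gonadotropin. Treatment rats received this induction and electroacupuncture at the Guanyuan and Sanyinjiao points, for 15 min a session on 7 days before induction and then during it. The model and treatment groups together are called induced. The labels describe 18 rats, 6 per group, but not which rat or rats each array represents, so p-values measure the spread between these arrays, which may be technical. The labels state the tissue only as uterine, with no strain, age, oestrous stage of the controls or tissue layer, and they describe no sham-acupuncture group. Levels are log2(intensity + 16), and differences between groups are log2 fold changes on that scale, where changes of dim genes come out too small.

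Smooth muscle contracts when calcium entering through L-type channels binds calmodulin and activates myosin light chain kinase, which phosphorylates the regulatory light chain so that myosin pulls on actin filaments. Tropomyosins, calponin and caldesmon sit on those filaments, which are anchored to dense bodies and adhesion plaques, while potassium channels of the BK type and myosin phosphatase favour relaxation. Many genes of this apparatus are switched on by serum response factor and its coactivator myocardin through a DNA element called the CArG box. In the uterus such genes mark mainly the myometrium, and part of the set is shared by vascular smooth muscle and pericytes. Some of the 37, such as Cnn2 and Tpm4, are not limited to muscle.

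The CArG boxes found just upstream of the start sites are shown because they are the shared control element for which these genes are known. RefSeq promoter windows of the rat (build GRCr8, 250 bases before to 50 after a start) were matched by symbol for 30 of the 37 genes, in 33 windows. Itga7, Lmod1, Myh11, Myl9, Myocd, Pdlim3 and Tagln were not among them. The exact CArG box, whose pattern reads the same on both strands, lay in 3 of these 33 windows (9.09%) and in 1.64% of all 33469 windows of that length. With 1 mismatch allowed in its A/T core, 4 of 33 (12.1%) held one, against 9.42% of all. The Acta2 promoter held 2 boxes of the latter kind, which start 134 and 84 bases before the gene's start. The boxes of Cnn2, Dmd and Ldb3 were exact and lay 71, 98 and 52 bases before their starts. Each sequence is printed 5′ to 3′ on the gene's strand with the box in capitals.
Acta2, chr1:241172613-241172652, minus strand: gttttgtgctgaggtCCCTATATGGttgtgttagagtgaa
Acta2, chr1:241172563-241172602, minus strand: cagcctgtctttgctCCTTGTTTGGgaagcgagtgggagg
Cnn2, chr7:10370359-10370398, minus strand: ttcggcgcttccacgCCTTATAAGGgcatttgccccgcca
Dmd, chrX:51205973-51206012, plus strand: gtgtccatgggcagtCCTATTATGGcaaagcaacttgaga
Ldb3, chr16:9924707-9924746, minus strand: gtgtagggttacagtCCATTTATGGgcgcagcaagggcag
A match is a description of these letters and shows no binding. The differences of these 4 genes between groups are given below with their roles.

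Of the 9 arrays, 2 controls stood apart, control 43 across all probe sets and control 41 in the contractile genes. Across probe sets control 43 correlated with controls 41 and 42 at r = 0.9446 and 0.9594 but with the 3 models at 0.9724 to 0.985, a description across probe sets, which are not independent. Control 43 was thus closer to the models than to the other controls, and whether its label is right was not tested, which bears on every control mean and on the fits without it. In the contractile genes this likeness was weaker. Control 43 lay within or above the range of the model arrays for 15 of the 33, against 76.7% of all genes. Control 42 was the highest control for 20 of the 33, against 20.0% of all genes. Control 41 was the lowest of all 9 arrays for 28 of the 33 contractile genes, whereas it was the lowest for 20.0% of all 10973 genes. Median intensities of the 9 arrays lay between 23.56 and 24.02, and the median deviation of all genes on control 41 was only -0.01, against -0.62 for the contractile genes. The contractile genes of control 41 were thus low on an array whose genes as a whole were not, by that median. Results are therefore given with all 9 arrays and, where these arrays change them, without control 41 or control 43.

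The contractile genes varied more among controls than within either induced group. Their median SD was 0.40 over the 3 controls and 0.16 in both the model and the treatment group, against 0.15, 0.12 and 0.11 for all genes. For 28 of the 33 the control group had the largest SD of the 3 groups, a count that was not taken over all genes. The mean deviation of the 33 genes from their own 9-array means was -0.64 on control 41, -0.04 on control 42 and -0.02 on control 43. It was 0.23, 0.13 and 0.05 on models 21, 22 and 23, and 0.21, 0.14 and -0.05 on treatments 31, 32 and 33. Controls 42 and 43 thus lay just under the lowest model array, and treatment 33 lay level with them. Model 21 held the highest value for 12 of the 33 genes (12.6% of all genes). Treatments 31 and 32 held it for 6 each (4.61% and 9.61% of all genes). Within the treatment group array 33 was the lowest for 27 of 33, against 25.0% of all genes.

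**Figure D1:**
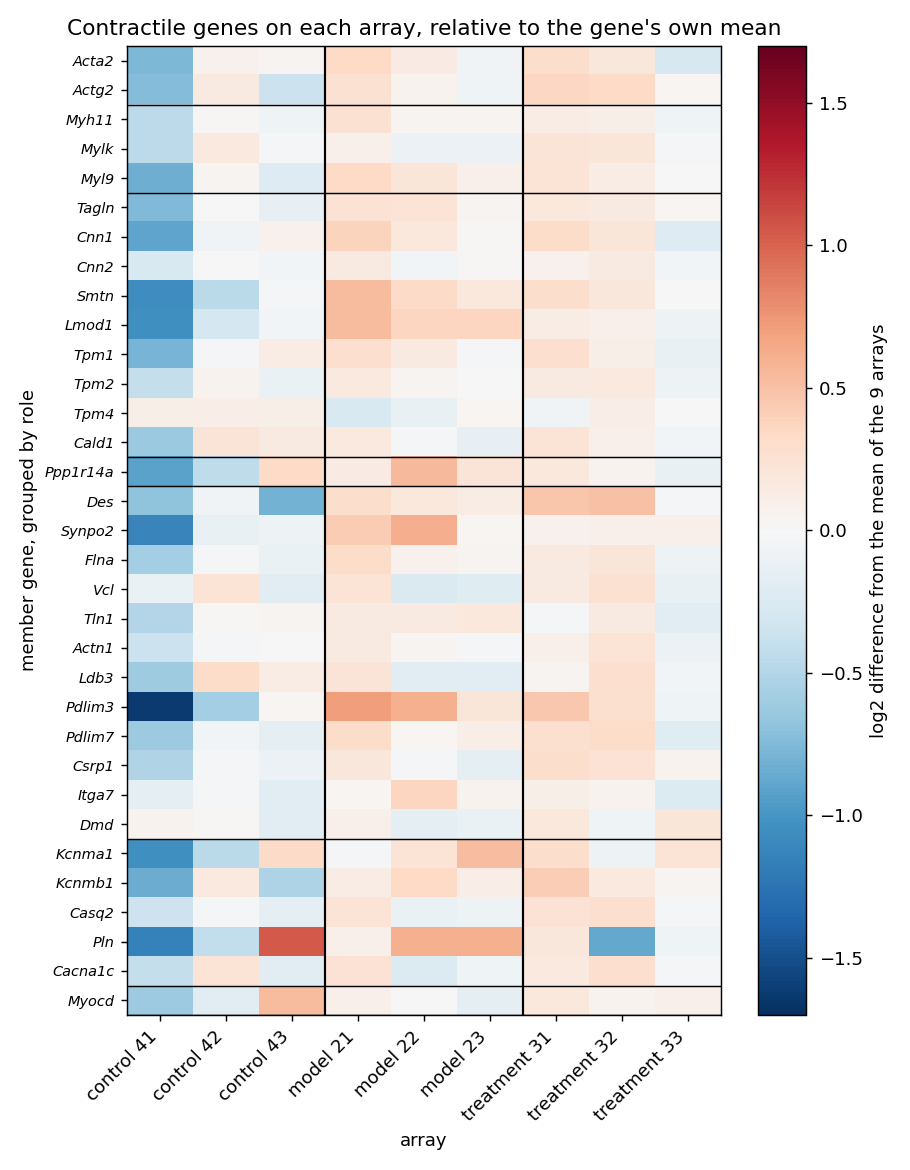
Log2 difference of each of the 33 contractile genes (rows, grouped by role) from its own mean over the 9 arrays (columns, by group). Blue fills the column of control 41, where 28 of the 33 genes had their lowest value, while Tpm4, Vcl and Dmd vary little there and Pln, Des and Myocd set control 43 apart.

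In model against control arrays, 30 of 33 contractile genes had a difference above 0, with a median of 0.36, while 53.5% of all genes lay above 0 with a median of 0.016. None of the 33 passed an adjusted p of 0.05 in limma (0 genes, where 0.0273% of all genes passed), and 10 had an unadjusted p under 0.05, 9 of them higher (6.37% of all genes) and 1 lower (6.08%). Groups did not overlap for 12 contractile genes that were higher in the model (7.79% of all genes) and 1 that was lower, Tpm4 (6.73%). In treatment against control arrays, 31 of 33 lay above 0 (42.2% of all genes) with a median of 0.32 against -0.037. Again 0 passed (0.510% of all genes), 8 had an unadjusted p under 0.05, all higher (6.54% of all genes, with 10.8% lower), 5 were higher with no overlap (9.40%) and 0 lower with none (13.9%). With both induced groups set against the controls, 32 of 33 lay above 0 (49.3% of all genes), the median was 0.32, and 0 passed (0.574% of all genes), with 12 at an unadjusted p under 0.05, all higher (6.07% of all genes, with 9.25% lower). The 6 induced arrays lay above all 3 controls for 4 genes, Des, Smtn, Synpo2 and Tagln (2.58% of all genes), and below them for 0 (3.68%). These comparisons share the control arrays, so they are not separate evidence. In such bulk tissue, fewer muscle cells and less of these RNAs per muscle cell cannot be told apart.

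The size of these differences changed when control 41 was left out. That array was singled out as the lowest for 28 of these same 33 genes. Leaving it out must lower their differences from control, so the fits without it are a description only. These fits also keep control 43, the control closest to the models. Without control 41 the median was 0.13 for models against controls, 0.10 for treatments against controls and 0.14 for all induced arrays against controls. Of the 33 genes, 26, 27 and 26 lay above 0. The median and the share above 0 over all genes were not recorded for these fits, so neither value has its background. None of the 33 passed in these fits (0 genes), where 0%, 0.0365% and 0.0547% of all genes did. Without control 43 the medians were 0.41, 0.45 and 0.44, again with no median over all genes recorded. In that fit 5 contractile genes passed in model against control, all higher: Smtn (1.11, adjusted p = 0.0146), Lmod1 (1.08, 0.0171), Ppp1r14a (0.97, 0.0178), Pdlim3 (1.60, 0.0188) and Kcnma1 (0.99, 0.03). That fit called 5.70% of all genes higher. Control 43 was singled out from these same arrays as the control closest to the models. Leaving it out can therefore widen the differences from control, and calls in any fit without it are a description only. In treatment against control without control 43, Smtn (0.92, adjusted p = 0.0314) and Pdlim3 (1.32, 0.0454) passed, where 1.49% of all genes were called higher. The same 5 genes passed in induced against control without control 43 (Smtn 1.02, Lmod1 0.90, Ppp1r14a 0.84, Pdlim3 1.46 and Kcnma1 0.95), where 3.98% of all genes were called higher. In each of the other 8 fits that left out an array, 0 contractile genes passed in any comparison.

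**Figure D2:**
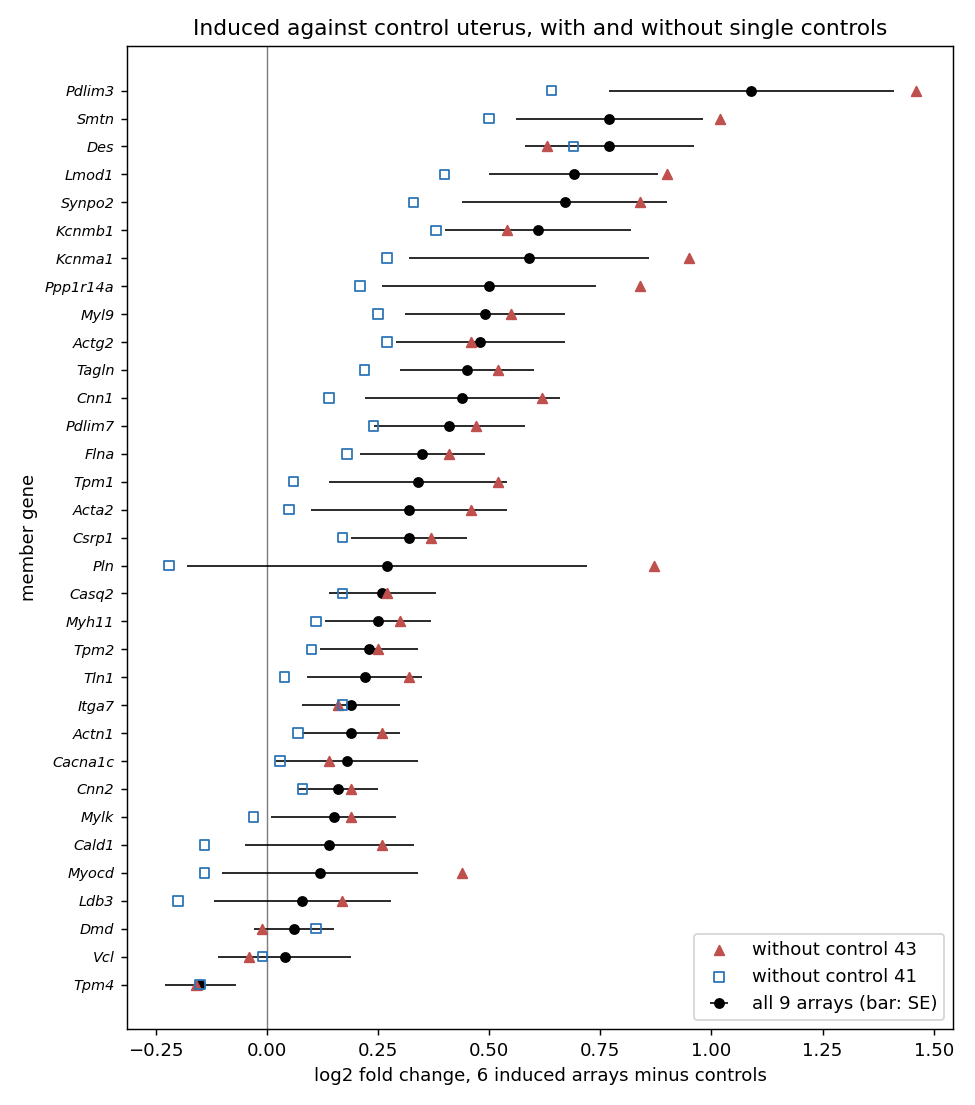
Log2 fold change of each contractile gene in the 6 induced arrays against the controls, with all 9 arrays (black, bars are SE), without control 43 (triangles) and without control 41 (squares). Squares move towards 0 for most genes, as for Acta2 at 0.05, while triangles move out for Pdlim3 (1.46), Kcnma1 (0.95) and Pln (0.87).

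Both contractile actins were higher on average in the induced groups, with overlap, and neither passed. Acta2 (probe set 1370857_at), the vascular and general smooth muscle actin, measured 9.41, 10.25 and 10.23 on controls 41, 42 and 43. It measured 10.52, 10.32 and 10.12 on models 21, 22 and 23 and 10.47, 10.37 and 9.91 on treatments 31, 32 and 33, and all further triplets follow this order. The groups overlapped, and the differences from control were 0.36 for the model (SE 0.25, adjusted p = 0.536) and 0.29 for the treatment (SE 0.25, adjusted p = 0.574). Actg2 (1386869_at), the enteric-type actin that predominates in visceral muscle, measured 10.76, 11.65 and 11.14 in controls, 11.76, 11.56 and 11.43 in models and 11.86, 11.84 and 11.53 in treatments. Control 42 reached into both induced groups, and the differences were 0.40 (SE 0.21, adjusted p = 0.457) and 0.56 (SE 0.21, adjusted p = 0.246). A further 5 probe sets that the annotation assigns to both Acta2 and the cardiac actin gene Actc1 were not used, since near-identical actins can share probes.

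The motor itself was nearly level outside control 41. Myh11 (1370896_a_at), the smooth muscle myosin heavy chain, measured 11.65, 12.12 and 12.03 in controls, 12.36, 12.15 and 12.14 in models and 12.22, 12.20 and 12.02 in treatments. All 3 models lay narrowly above the controls, while treatment 33 did not, and the differences were 0.28 (SE 0.14, adjusted p = 0.427) and 0.21 (SE 0.14, adjusted p = 0.437). Myl9, the regulatory light chain that the kinase phosphorylates, averaged 11.21 ± 0.45 in controls, 11.75 ± 0.12 in models and 11.66 ± 0.12 in treatments (SD, n = 3). Its models lay above all controls, with a difference of 0.54 (SE 0.20, adjusted p = 0.358). Mylk, the light chain kinase, differed by 0.06 in models and 0.24 in treatments, with adjusted p of 0.878 and 0.462.

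Among the regulators on the thin filament, Lmod1, Smtn and Tagln had models above all controls, and Smtn and Tagln also had treatments above them. Smtn (1372684_at), whose product marks contractile smooth muscle cells, measured 8.01, 8.61 and 9.05 in controls, 9.61, 9.39 and 9.25 in models and 9.36, 9.26 and 9.07 in treatments. Every induced array lay above every control, treatment 33 only just above control 43. The differences were 0.86 (SE 0.24, adjusted p = 0.266) and 0.68 (SE 0.24, adjusted p = 0.222). Lmod1 (1374237_at), an actin filament nucleator of smooth muscle, measured 6.34, 7.08 and 7.33 in controls, 7.91, 7.74 and 7.74 in models and 7.51, 7.46 and 7.29 in treatments. The models lay above all other arrays, whereas treatment 33 lay just under control 43, and the differences were 0.88 (SE 0.22, adjusted p = 0.252) and 0.50 (SE 0.22, adjusted p = 0.295).

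Tagln (1367570_at), encoding transgelin or SM22, measured 11.52, 12.26 and 12.13 in controls, 12.51, 12.50 and 12.32 in models and 12.45, 12.42 and 12.30 in treatments. All 6 induced arrays were above the controls, treatment 33 only just above control 42. The differences were 0.47 (SE 0.18, adjusted p = 0.358) and 0.42 (SE 0.18, adjusted p = 0.280). Cnn1 (1367785_at), calponin, an inhibitor of actomyosin that marks differentiated muscle, measured 9.90, 10.74 and 10.87 in controls, 11.17, 10.98 and 10.82 in models and 11.11, 11.00 and 10.58 in treatments. Model 23 lay below control 43 and treatment 33 below controls 42 and 43, and the differences were 0.49 (SE 0.26, adjusted p = 0.451) and 0.39 (SE 0.26, adjusted p = 0.450).

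The other thin filament genes differed less. Cnn2, the calponin found in many cell types, differed by 0.15 and 0.17 in models and treatments (adjusted p = 0.534 and 0.425). Tpm1 and Tpm2, the muscle tropomyosins that lie along the actin filament, differed by 0.37 and 0.23 in models and by 0.32 and 0.22 in treatments, with adjusted p of 0.402 to 0.507. Cald1, caldesmon, differed by 0.09 and 0.18. Tpm4 (1371653_at), a non-muscle tropomyosin, had a negative difference in both groups, which no other contractile gene had. Tpm4 measured 9.75, 9.76 and 9.75 in controls, 9.39, 9.52 and 9.68 in models and 9.59, 9.77 and 9.65 in treatments. Its 3 models lay below all controls (-0.22, SE 0.10, adjusted p = 0.398), and control 41 was not low for it.

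**Figure D3:**
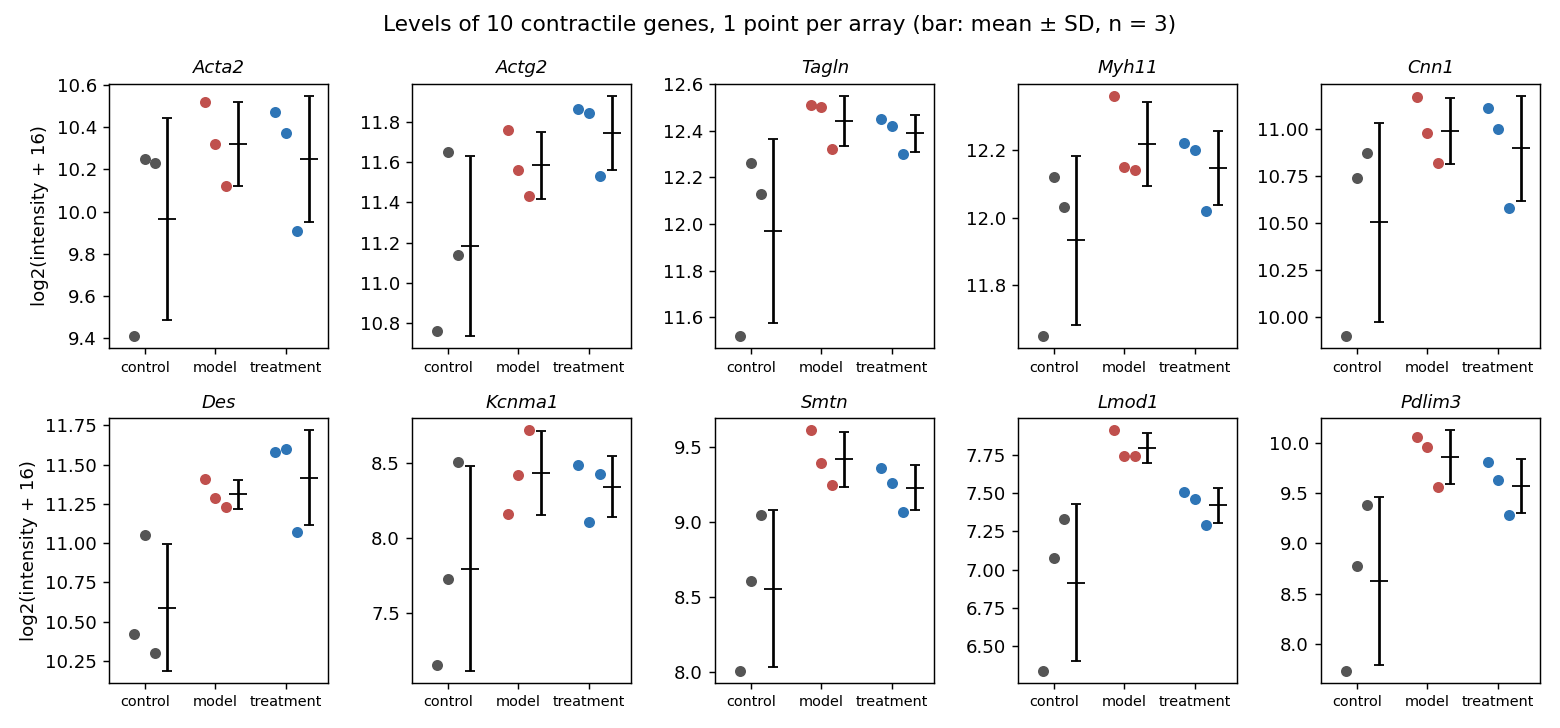
Level of 10 contractile genes as log2(intensity + 16), 1 point per array in the order of the array numbers, with the mean ± SD of each group of 3. Vertical axes differ between panels and do not start at 0. Control 41 is the lowest point of every panel except Des, where control 43 is, and the model arrays of Smtn, Lmod1, Pdlim3, Des, Tagln and Myh11 lie above all controls.

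Of the 3 genes of the myosin phosphatase and cGMP kinase arm, 1 was tested. Ppp1r14a (1367813_at) encodes CPI-17, which inhibits myosin phosphatase and so raises the calcium sensitivity of contraction. It averaged 6.47 ± 0.63 in controls, 7.10 ± 0.22 in models and 6.83 ± 0.16 in treatments (SD, n = 3). Its control 43, at 7.14, lay inside the model range, and the differences were 0.63 (SE 0.28, adjusted p = 0.407) and 0.37 (SE 0.28, adjusted p = 0.522).

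In the group of intermediate filament, dense body and adhesion plaque genes, 10 of 12 lay above 0 in models and 12 of 12 in treatments. Des (1367600_at), encoding desmin, the muscle intermediate filament, measured 10.42, 11.05 and 10.30 in controls, 11.41, 11.29 and 11.23 in models and 11.58, 11.60 and 11.07 in treatments. Every induced array was above every control, treatment 33 only just above control 42. Des had the smallest p of the contractile genes in treatment and in induced against control. Its differences were 0.72 in models (SE 0.22, adjusted p = 0.284), 0.83 in treatments (SE 0.22, adjusted p = 0.128) and 0.77 in all induced arrays (SE 0.19, adjusted p = 0.129). Unlike most of the set it depended little on control 41, at 0.69 without it in induced against control (adjusted p = 0.418) and 0.63 without control 43 (adjusted p = 0.081).

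Pdlim3 (1370291_at), an actinin-associated LIM protein, had the largest difference of all 33. It measured 7.73, 8.77 and 9.38 in controls, 10.06, 9.96 and 9.56 in models and 9.81, 9.63 and 9.28 in treatments. The models lay above all controls, while treatment 33 lay under control 43, and the 3 controls spanned more than either induced group. The differences were 1.23 (SE 0.37, adjusted p = 0.291) and 0.95 (SE 0.37, adjusted p = 0.251). Synpo2, encoding the Z-disc and dense body protein myopodin, averaged 9.44 ± 0.58 in controls, 10.24 ± 0.30 in models and 9.96 ± 0.01 in treatments (SD, n = 3). Its induced arrays all exceeded the controls, with differences of 0.81 (SE 0.27, adjusted p = 0.329) and 0.53 (SE 0.27, adjusted p = 0.351).

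Csrp1 (1370057_at), a LIM protein of the actin cytoskeleton, measured 10.73, 11.21 and 11.14 in controls, 11.43, 11.22 and 11.09 in models and 11.54, 11.49 and 11.30 in treatments. Only its treatment arrays cleared the controls, with differences of 0.41 (SE 0.15, adjusted p = 0.228) against 0.22 in models (SE 0.15, adjusted p = 0.530). Itga7 (1370937_a_at), the laminin-binding integrin subunit of muscle, measured 6.05, 6.19 and 6.03 in controls, 6.25, 6.59 and 6.28 in models and 6.32, 6.28 and 5.98 in treatments. Its models lay above the controls (0.28, SE 0.13, adjusted p = 0.407), and its treatments overlapped with them (0.10, SE 0.13, adjusted p = 0.717). The filamin gene Flna (0.38, SE 0.16, adjusted p = 0.396), the LIM domain gene Pdlim7 (0.43, SE 0.19, adjusted p = 0.407) and the talin gene Tln1 (0.31, SE 0.15, adjusted p = 0.432) also had models above all controls, but not treatments.

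The remaining plaque genes were close to level. Actn1, an actinin that crosslinks actin, differed by 0.18 in models and 0.20 in treatments. Vcl, encoding vinculin, differed by -0.04 and 0.12, and Ldb3, a PDZ and LIM protein of the Z-disc, by 0.01 and 0.15. Dmd (1369810_at), encoding dystrophin, measured 5.37, 5.33 and 5.13 in controls, 5.40, 5.15 and 5.20 in models and 5.5, 5.25 and 5.52 in treatments. It was dim on all arrays, and its differences were -0.03 (SE 0.10, adjusted p = 0.922) and 0.15 (SE 0.10, adjusted p = 0.484).

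The channel and calcium store genes split in how the controls ranked. Kcnma1 (1372929_at), the pore of the BK potassium channel, measured 7.15, 7.73 and 8.51 in controls, 8.16, 8.42 and 8.72 in models and 8.49, 8.11 and 8.43 in treatments. Control 43 lay among the induced arrays and controls 41 and 42 under all of them. The differences were 0.63 (SE 0.31, adjusted p = 0.434) and 0.54 (SE 0.31, adjusted p = 0.4). Its accessory subunit gene Kcnmb1, which tunes the channel to calcium in smooth muscle, ranked the controls otherwise, at 5.40, 6.42 and 5.72. Kcnmb1 averaged 6.44 ± 0.13 in models and 6.46 ± 0.19 in treatments, with differences of 0.60 (SE 0.24, adjusted p = 0.376) and 0.62 (SE 0.24, adjusted p = 0.247).

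Pln, encoding phospholamban, the brake on the calcium pump of the store, had the largest SD among controls of the contractile genes (1.11). It measured 5.21, 5.94 and 7.40 in controls, 6.45, 6.96 and 6.96 in models and 6.56, 5.49 and 6.29 in treatments. The controls alone spanned both induced groups, and the differences were 0.61 (SE 0.52, adjusted p = 0.605) and -0.07 (SE 0.52, adjusted p = 0.959). Casq2, the calcium-binding protein of the store, differed by 0.18 and 0.33, and Cacna1c, the pore of the L-type calcium channel, by 0.10 and 0.25. Myocd (1385125_at), the coactivator myocardin, measured 6.13, 6.57 and 7.29 in controls, 6.84, 6.74 and 6.59 in models and 6.93, 6.81 and 6.83 in treatments. Its highest array was control 43, its lowest control 41, and the differences were 0.06 (SE 0.25, adjusted p = 0.929) and 0.19 (SE 0.25, adjusted p = 0.731).

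Treatment against model, which sets induction with electroacupuncture against induction alone, gave 0 calls among the contractile genes and 0% among all genes in limma, with 0 contractile genes at an unadjusted p under 0.05 (4.57% of all genes higher, 10.1% lower). Of the 33, 15 lay above 0 (38.9% of all genes) and 18 below, with a median of -0.03 against -0.054 for all genes. Under quantile normalization 18 lay above 0 and the medians were 0.01 and 0.009. None lay above all models (0 genes, 8.10% of all genes). The smallest p belonged to Lmod1, at -0.38 (SE 0.22, 95% interval -0.89 to 0.14, adjusted p = 0.442), whose 3 treatment arrays lay below all models. Tln1 was the other gene without overlap (-0.18, SE 0.15, adjusted p = 0.576), and 2 of 33 stands beside 19.9% of all genes with treatments below all models. Dmd (0.18, SE 0.10, adjusted p = 0.443), Itga7 (-0.18, SE 0.13, adjusted p = 0.495) and Tpm4 (0.14, SE 0.10, adjusted p = 0.498) came next. For the structural core the 95% intervals ran from -0.38 to 0.24 for Myh11, -0.46 to 0.35 for Tagln, -0.33 to 0.65 for Actg2 and -0.64 to 0.50 for Acta2. For Cnn1 the interval ran from -0.68 to 0.49, for Des from -0.39 to 0.60 and for Kcnma1 from -0.81 to 0.63. Differences inside these bounds could not be resolved with 3 arrays a group. The sign turned under at least 1 alternative for Acta2, Myh11, Cnn1 and Kcnma1, and on leaving out an array also for Cnn2, Flna, Tpm1, Tpm2, Pdlim7, Actn1 and Kcnmb1.

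Several contractile genes had more than 1 probe set past the filter, 15 of the 33 in all. Their probe sets had the same sign for 10 of 15 in model against control, 13 of 15 in treatment against control and 12 of 15 in induced against control, but for only 6 of 15 in treatment against model. Smtn and Synpo2 held across all of theirs in both comparisons with control, at 0.55 to 0.86 for Smtn and 0.48 to 0.81 for Synpo2 in models. A dimmer probe set of Mylk gave 0.64 and 0.49 where the brighter gave 0.06 and 0.24. Tpm1, whose 7 probe sets may cover different transcripts, ranged from -0.20 to 0.39 in induced against control.

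Other genes of the contraction pathway were counted from lists that did not include the contractile genes themselves. In induced against control, 0 genes passed in any of these 5 lists, in the order below (0.574% of all genes passed). Without control 43, 1 passed higher and 1 lower in the first, 0 in the second, 2 higher in the third, 1 higher and 2 lower in the fourth and 1 higher in the fifth, where 3.98% of all genes were called higher and 7.36% lower. Among 11 partners of RhoA, ROCK and myosin phosphatase the median was -0.02, with the non-muscle light chain gene Myl12b at -0.38 (adjusted p = 0.180) and the kinase gene Rock2 at 0.30 (0.219). Among 10 genes for serum response factor and its cofactors the median was 0.10, with the LIM gene Fhl1 at 0.99 (adjusted p = 0.126) and the ETS cofactor gene Elk4 at -0.35 (0.139). Myl12b and Elk4 were thus lower where most contractile genes were higher.

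Among 15 calcium entry and store genes the median was -0.05, led by the calcium channel subunit gene Cacnb2 at 0.45 (adjusted p = 0.207) and the cation channel gene Trpc1 at 0.26 (0.229). The 19 adhesion plaque and costamere partners had a median of 0.27, with 15 above 0. Sgca, a sarcoglycan of the dystrophin complex, differed by 0.26 (adjusted p = 0.128), and Itgb1, the common beta subunit of integrins, by 0.37 (0.140). All 8 genes of the cGMP and small heat shock protein list lay above 0, with a median of 0.36, led by the heat shock protein genes Hspb1 at 0.85 (adjusted p = 0.180) and Cryab at 0.87 (0.257). Control 41 had the lowest score of the 9 arrays for 4 of these 5 lists, at -0.73 for the heat shock, -0.39 for the plaque, -0.34 for the serum response factor and -0.09 for the calcium list.

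Markers of other uterine cell types moved across the same arrays. The 16 epithelial markers were all above the filter, and their summed intensity was 21177, 15578 and 5214 on controls 41, 42 and 43, 4084 to 5568 in models and 4708 to 7211 in treatments. That of the 33 contractile genes was 29436, 45319 and 41861 on those controls, 44968 to 53007 in models and 43214 to 52060 in treatments. Control 41 thus had the highest epithelial and the lowest contractile sum of the 9 arrays, and control 43 an epithelial sum in the model range. In induced against control, 15 of 16 epithelial markers lay below 0 with a median of -0.77. Of the 16, 1 passed narrowly and was lower, Prom1 (-2.45, adjusted p = 0.0477), where 47 of all 10973 genes were called lower. Epcam, the epithelial adhesion molecule, was next at -0.53 (adjusted p = 0.126). Without control 43, 12 of the 16 passed, all lower, where 7.36% of all genes were called lower. Without control 41, 0 of the 16 passed, where 0.0547% of all genes were called. The part of epithelial content in the contractile differences was not tested.

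The 15 stromal and fibroblast markers summed to 10413 to 18026 in controls, 13439 to 17062 in models and 9849 to 15528 in treatments. In induced against control 0 of them passed (0.574% of all genes), 7 lay above 0 and the median was -0.01. Their smallest p belonged to Col6a2, a collagen VI chain (-0.34, adjusted p = 0.313), and Fbln1, fibulin (-0.26, 0.353). The pooled median averages opposite signs. Against control it was 0.24 in models (12 of 15 above 0, 53.5% of all genes) and -0.26 in treatments (4 of 15, 42.2%). In treatment against model 2 of the 15 lay above 0 (38.9% of all genes). The 10 endothelial markers summed to 902 to 1737, 1305 to 1481 and 549 to 1231, the lowest being treatment 32. In induced against control 2 of them lay above 0 and 8 below, with a median of -0.11. The junction genes Esam and Cldn5 differed by -0.21 (adjusted p = 0.623) and 0.40 (0.662). Here too the signs were opposite, with an endothelial median of 0.16 in models and -0.32 in treatments against control. In treatment against model 0 of the 10 lay above 0 (38.9% of all genes). The 7 markers of pericytes, cells that share part of the contractile set, summed to 808 to 1134, 1132 to 1425 and 1054 to 1220. Of these 6 lay above 0 and 1 below in induced against control, with a median of 0.14. The proteoglycan gene Cspg4 differed by 0.42 (adjusted p = 0.233) and Mcam by 0.45 (0.238). Treatment 32, with the lowest stromal and endothelial sums, had a contractile score of 0.14, inside the range of the other induced arrays. The part of these cell types in the contractile differences was not tested either.

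Skeletal muscle was looked for because Des, Casq2, Ldb3 and Itga7 are shared with it. Of 14 skeletal muscle markers with a probe set, 7 lay below the filter, among them the creatine kinase gene Ckm and the fast myosin genes Myh2 and Myh4. The other 7 summed to 1761 to 2507 in controls, 2087 to 2770 in models and 1735 to 3019 in treatments, so these ranges overlapped. In induced against control 4 of the 7 lay above 0 and 3 below, with a median of 0.19. The troponin genes Tnnc2 and Tnni2 differed by -0.84 (adjusted p = 0.238) and 0.26 (0.348). Markers of adipocytes (6 tested), leukocytes (7) and erythrocytes (2) had medians of 0.49, 0.00 and 0.45 in induced against control, with 0 passing (0.574% of all genes). The lipid droplet gene Plin4 differed by 0.57 (adjusted p = 0.126), Cfd by 0.51 (0.200), the leukocyte genes Il2rb by 0.32 (0.334) and Prf1 by 0.35 (0.449), in a list with 4 above 0 and 3 below, the globin gene Hbb by 0.77 (0.449) and Alas2 by 0.12 (0.673). The leukocyte median of 0.00 averages 0.31 in models and -0.31 in treatments against control. In treatment against model 0 of the 7 leukocyte markers lay above 0 (38.9% of all genes). Each of the 33 tested contractile genes, the defining markers of smooth muscle among them, was at or above the filter's level on all 9 arrays.

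**Figure D4:**
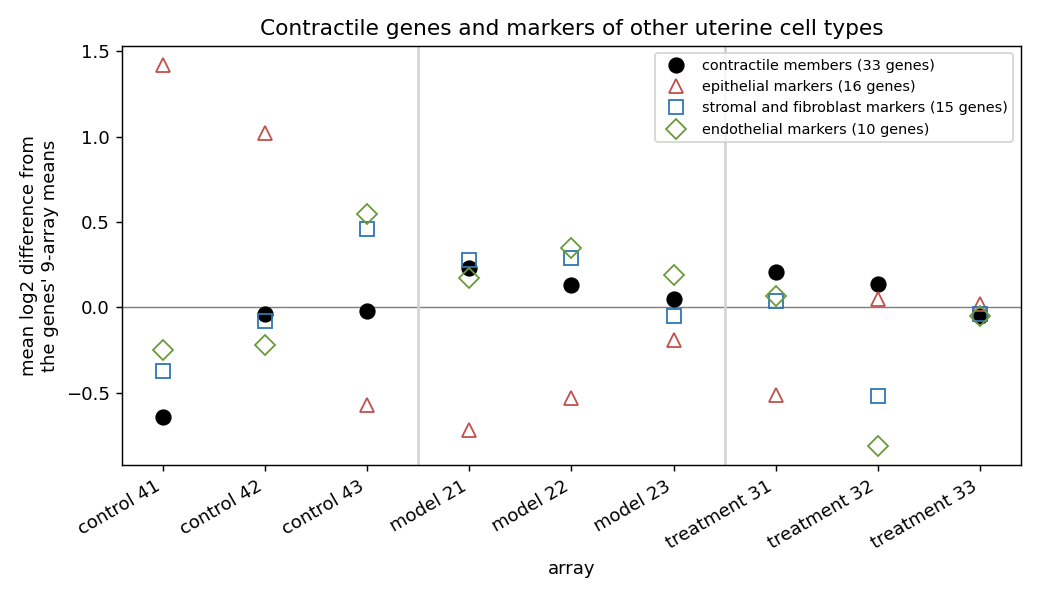
Mean log2 difference of each gene list from its genes' 9-array means, 1 symbol per list and array. Control 41 combines the lowest contractile score (-0.64) with the highest epithelial score (1.42), control 42 has an epithelial score of 1.02 with a contractile score of -0.04, and control 43 has -0.57 and -0.02.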

How the data were processed

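Total RNA of 9 uterine samples was hybridised to 1-colour Affymetrix rat arrays. The authors deposited probe set intensities on a linear scale, 1.8704 to 7895.6841. The submitters' processing notes list MAS5. Scaling, centring and background level of these values: not given in the sources used here. Of 31099 probe sets, 57 Affymetrix controls were left out. The platform annotation gave 1 symbol for 20826 of the other 31042, several for 436 and none for 9780, and 20758 were matched to RefSeq genes. Values were taken as log2(intensity + 16). Probe sets at or above the 40th percentile of their array on at least 3 arrays were kept (19326), and 1 stood for each of 10973 genes. No 2 arrays held the same values. Groups were compared in 1 fit to all 9 arrays with limma 3.58.1 (R 4.3.3, two-sided, with a variance trend and 6 residual degrees of freedom), tested on simulated data, with Benjamini-Hochberg adjustment over all genes within each of the 4 comparisons. The number of arrays limits the precision. Named genes are all members, with values on every array for Acta2, Actg2, Tagln, Myh11, Cnn1, Des, Kcnma1 and, in each comparison, the 4 smallest p. Of each pathway or marker list, the 2 smallest p in induced against control are named. Values on every array for Pln, Myocd and Kcnmb1's controls were added after they were seen. The members and lists were chosen with earlier results of these data known. Figures used matplotlib 3.10.9.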

Additional observations from a re-analysis of the deposited data

How the results depend on the processing

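Alternatives changed the added constant (1 or 64), scaling, filter, variance model, arrays fitted and probe sets, or left out 1 array. No contractile gene passed under any that kept all 9 arrays or all arrays of the groups compared. Leaving out 1 array gave 0 to 5 contractile calls in model against control, 0 to 2 in treatment against control and 0 to 5 in induced against control, those above 0 without control 43. Medians of the contractile genes were then 0.13 to 0.47, 0.10 to 0.45 and 0.14 to 0.44, the lowest without control 41. Calls over all genes ran from 0 to 1384 in model against control, 0 to 720 in treatment against control, 0 to 3 in treatment against model and 3 to 1245 in induced against control. Against 3 calls in model against control there was 1 with no filter and 1 with the 6 compared arrays. Against 63 in induced against control there were 34 with no filter and 32 with the mean of probe sets. With a replicate block built from the final digit of each array's number, which the labels do not call a pairing, calls were 27 in treatment against control and 32 in induced against control, and 0 contractile genes passed. In treatment against model, the sign turned for Myh11 at 0.04 with the mean of probe sets and for Kcnma1 at 0.01 under quantile normalization. On leaving out 1 array, Acta2 ran from -0.18 to 0.10, Myh11 from -0.11 to 0.00, Cnn1 from -0.20 to 0.06 and Kcnma1 from -0.23 to 0.06. Under quantile normalization calls over all genes in treatment against control were 27 higher and 28 lower, in place of 19 and 37, and in induced against control 21 and 37, in place of 16 and 47. The cause was not tested. Signal over background is unknown here, so how far dim genes such as Dmd, Casq2 and Ppp1r12b exceed it cannot be given.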

Other observations

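Set against the median contractile gene of the same array, members differed in how they deviated, a description with no test. In this relative measure, centred on each gene's own mean, Pdlim3 averaged -0.62 in controls, 0.46 in models and 0.16 in treatments. Smtn averaged -0.41, 0.30 and 0.10, Des -0.41, 0.16 and 0.25, Lmod1 -0.35, 0.37 and -0.02, and Synpo2 -0.34, 0.32 and 0.02. The low control means of Pdlim3, Smtn, Lmod1 and Synpo2 came from controls 41 (-1.31, -0.75, -0.72 and -0.80) and 42 (-0.62, -0.49, -0.33 and -0.16), while control 43 was near the median gene (0.07, 0.02, -0.01 and -0.05). For Des, controls 41 (-0.38) and 43 (-0.76) were low and control 42 (-0.09) was less so. Myh11 (-0.06, 0.07 and -0.01), Actn1 (-0.02, 0.01 and 0.02), Tpm2 (-0.04, 0.03 and 0.01) and Cnn2 (0.00 in each group) moved with the median gene. Tpm4 (0.21, -0.17 and -0.04) ran the other way.

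On control 43 the relative levels of Pln (1.08), Myocd (0.58), Ppp1r14a (0.38) and Kcnma1 (0.36) were high and those of Des (-0.76), Kcnmb1 (-0.49) and Actg2 (-0.32) low. On control 41 those of Pdlim3 (-1.31), Pln (-0.84) and Synpo2 (-0.80) were the lowest, and those of Tpm4 (0.41) and Dmd (0.37) the highest. The median deviation of the contractile genes on control 41 was -0.62, so a gene that stayed level there comes out high in this measure. Tpm4 measured 9.75 on control 41 with a 9-array mean of 9.65, and the dim gene Dmd 5.37 with a mean of 5.32. Des (-0.38), Kcnmb1 (-0.54) and Actg2 (-0.43) were low on control 41 as well, whereas Pln, Kcnma1 (-0.72), Ppp1r14a (-0.60) and Myocd (-0.30) were low on control 41 and high on control 43. Kcnma1 and Kcnmb1, both of the BK channel, lay on opposite sides of the median gene on control 43.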
